A study of Rattus norvegicus with 12 samples.

Results

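*Gfap* (ENSRNOG00000002919), *Vim* (ENSRNOG00000018087) and *Nes* (ENSRNOG00000018681) encode the glial intermediate filament proteins GFAP, vimentin and nestin, and were followed through 12 libraries of whole retina from Royal College of Surgeons (RCS) rats, as 3 of the 32883 genes counted. RCS rats carry a *MerTK* mutation, with which the retinal pigment epithelium fails to clear rod outer segments and the photoreceptors are lost. Retinas were collected at p21, the study's baseline, and at p60, its end point. At each age, 3 libraries were labelled as immunocompetent males (genotype RCS-p+, titled WT) and 3 as athymic females (genotype RCS-p+/Foxn1mu). The athymic genotype has a mutation of *Foxn1*, which the thymus requires. Every group carried the *MerTK* mutation, so age and degeneration cannot be told apart, and the line and the labelled sex coincide. The sources used here do not say whether each library was 1 animal or a pool.

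The 3 genes were chosen by name, with earlier results of these libraries known, and the rise of *Gfap* between the ages was among the values that chose them. Differences between the ages are therefore described with their errors, and no test of them is given for these genes. The identifiers were paired with names by the rule that chose them, and each gene lay on the chromosome and strand that RefSeq gives for that name. None of the 32883 identifiers could be paired with a name through the reference table (0 matched), so markers of Müller glia, astrocytes, photoreceptors and other cells, and lists of related genes, were not analysed here.

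Intermediate filaments are rope-like polymers that give a cell its mechanical strength. In the mammalian retina, vimentin is a normal constituent of Müller glia, the radial glia that span the whole tissue, and GFAP is found mainly in the astrocytes of the nerve fiber layer. Müller glia accumulate GFAP after photoreceptor injury, which is why its level serves as a measure of glial reaction. Nestin marks neural progenitors and can reappear in reactive glia. Vimentin and nestin are not confined to glia, since vimentin is also made by endothelial cells, fibroblasts and the lens, and nestin by growing vessels.

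In Rnor_6.0, the build in the submitters' processing notes, *Gfap* is on the minus strand of chromosome 10 from 90990762 to 90999506, with 10 exonic blocks that sum to 3661 bases. *Vim* is on the plus strand of chromosome 17 from 80882666 to 80891212, with 9 blocks and 1857 bases. *Nes* is on the plus strand of chromosome 2 from 187344056 to 187352969, with 4 blocks and 6085 bases. None of the 3 overlaps another annotated gene (0 overlaps each), and the nearest gene is 559 bases away from *Gfap*, 4265 from *Vim* and 6708 from *Nes*. Reads of a neighboring gene were therefore not shared through overlapping annotation.

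The promoters of *Gfap*, *Vim* and *Nes* are shown as a description, and no relation to the changes between the ages was tested. Each sequence is the 250 bases before the start of the gene in RefSeq (GRCr8), read 5′ to 3′ on the strand of the gene. It covers chr10:88361662-88361911 on the minus strand for *Gfap*, chr17:81577011-81577260 on the plus strand for *Vim* and chr2:175736338-175736587 on the plus strand for *Nes*. Capitals mark matches on either strand to TATAAA, to CCAAT (read as ATTGG on the other strand) and to the GC box GGGCGG (read as CCGCCC).
Gfap: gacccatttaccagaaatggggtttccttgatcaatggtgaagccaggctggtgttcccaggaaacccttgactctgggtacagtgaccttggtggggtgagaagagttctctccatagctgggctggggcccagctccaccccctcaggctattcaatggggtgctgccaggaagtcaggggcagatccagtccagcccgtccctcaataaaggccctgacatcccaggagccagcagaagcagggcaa
Vim: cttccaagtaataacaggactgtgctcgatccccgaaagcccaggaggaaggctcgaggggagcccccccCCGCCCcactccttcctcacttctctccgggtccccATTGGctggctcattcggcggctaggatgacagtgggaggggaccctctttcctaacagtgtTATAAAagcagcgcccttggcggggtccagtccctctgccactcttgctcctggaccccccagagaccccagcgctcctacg
Nes: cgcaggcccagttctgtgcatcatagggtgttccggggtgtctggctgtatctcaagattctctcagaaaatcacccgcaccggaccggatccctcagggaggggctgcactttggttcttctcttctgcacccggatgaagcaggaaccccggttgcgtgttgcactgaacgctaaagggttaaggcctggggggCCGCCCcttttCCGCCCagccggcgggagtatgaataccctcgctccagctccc

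The *Vim* sequence held TATAAA from 82 to 77 bases before the start, CCAAT on the opposite strand from 144 to 140 bases before it and a GC box on the opposite strand from 180 to 175. The *Nes* sequence held a pair of GC boxes on the opposite strand, from 54 to 49 and from 43 to 38 bases before the start. The *Gfap* sequence held none of these letters. TTCNNNGAA, the core bound by STAT factors, and TGANTCA, that of AP-1, were in none of the 3 sequences. No 2 of the matches overlapped. Among 33469 RefSeq rat promoters of the same length, 12.9% held TATAAA, 34.0% CCAAT, 30.5% GGGCGG, 7.67% TTCNNNGAA and 6.34% TGANTCA on either strand. A match of letters is not a binding site, and the absence of a match covers only this window.

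Total counts per library ranged from 13852516 to 16725355. The labelled sex was checked with the 48 Y-linked genes, and did not match in every library. The 6 libraries labelled male had 229.2 (library 3) to 323 CPM (counts per 1000000 counts of the library) on these genes. Libraries 6, 23 and 24, labelled female, had 8.79, 23.2 and 16.1 CPM, whereas libraries 4, 5 and 22, also labelled female, had 328, 316 and 269 CPM. The lines were compared as labelled, and the p21 differences are also given without libraries 4, 5 and 22. At p21 that setting leaves library 6 against libraries 1, 2 and 3, so that line and sex by Y counts coincide in full. A further setting also left out library 3, whose Y count matched its label but was the lowest of the libraries labelled male, where the other 5 had 250.8 to 323 CPM.

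Libraries of the same age and line also differed in a group of genes that varied together. Of 16069 genes tested, 297 had a standard deviation (SD) of at least 1 within age and line on the log2 CPM scale, and 134 of these, on 21 chromosomes or scaffolds, followed the first principal component of that variation (r of at least 0.8). None of the 3 filament genes was among the 297 (0 members). The 134 genes summed to 20261 CPM in library 4 at p21 and to 10522 in library 19 and 5545 in library 24 at p60. In the other p21 libraries they summed to 757 (library 1), 767 (library 2), 2053 (library 3), 924 (library 5) and 3993 (library 6), and in the other p60 libraries to between 468 and 590.1. The most abundant of the 134 genes had 6265 CPM in library 4 and 8.39 CPM in library 23. What these genes are was not analysed here, for want of names, and values without libraries 4, 19 and 24 are given beside the changes between the ages and the interactions.

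*Gfap*, the filament gene of astrocytes and stressed Müller glia, was a gene of middling abundance at p21 and among the most abundant at p60. Levels are given as CPM on library sizes scaled with the TMM method. The immunocompetent p21 retinas had 26.2 (library 1), 39.2 (library 2) and 24.8 CPM (library 3), and the athymic p21 retinas had 18.1 (library 4), 22.5 (library 5) and 15.6 CPM (library 6). The immunocompetent p60 retinas had 491 (library 19), 427 (library 20) and 678 CPM (library 21), and the athymic p60 retinas had 588 (library 22), 396 (library 23) and 602 CPM (library 24). The ages did not overlap, since the lowest p60 library was 10.1 times the highest p21 library. *Gfap* was chosen with this rise known, and the share of all genes whose ages do not overlap was not computed. The raw counts of *Gfap* lay between 244 and 578 at p21 and between 6517 and 10889 at p60.

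The mean *Gfap* level was 30.1 ± 7.93 CPM at p21 and 532 ± 130.3 at p60 in the immunocompetent line, and 18.7 ± 3.50 and 529 ± 115 CPM in the athymic line (SD, n = 3 each), a ratio of means of 17.7 and 28.2. The log2 fold change from p21 to p60 was 4.48 (standard error, SE, 0.199) over all 12 retinas. It was 4.14 (SE 0.219) in the immunocompetent line and 4.82 (SE 0.205) in the athymic line. Without libraries 4, 19 and 24 these values were 4.41, 4.19 and 4.68. By size of rise, *Gfap* ranked 3 among 16069 genes over all retinas, 4 among 15412 in the immunocompetent line and 4 among 15507 in the athymic line. The rank depended on the genes and libraries that entered. In the immunocompetent line it was 50 without a filter on low counts, 13 without library 1, 12 without library 3 and 9 without library 20. In the athymic line it was 20 without a filter, 14 without library 6, 9 without library 5 and 75 without libraries 4, 5 and 22. Over all retinas it lay between 1 and 10 under the settings tried. The share of all counts taken by *Gfap* went from 0.00228% at p21 to 0.0566% at p60.

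*Vim*, the filament gene that Müller glia express at rest, was already abundant at p21 and was higher on average at p60. The immunocompetent p21 retinas had 168 (library 1), 201 (library 2) and 229 CPM (library 3), and the athymic p21 retinas had 338 (library 4), 146 (library 5) and 234 CPM (library 6). The immunocompetent p60 retinas had 504 (library 19), 254 (library 20) and 324 CPM (library 21), and the athymic p60 retinas had 334 (library 22), 289.5 (library 23) and 460.2 CPM (library 24). The ages did not overlap in the immunocompetent line and overlapped in the athymic line, where library 4 at p21 was above libraries 22 and 23 at p60. The share of all genes without overlap in a line was not computed either.

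Mean *Vim* levels were 199.7 ± 30.5 CPM at p21 and 361 ± 129 at p60 in the immunocompetent line, and 239 ± 95.7 and 361 ± 88.6 CPM in the athymic line (SD, n = 3 each). The log2 fold change was 0.72 (SE 0.202) over all 12 retinas, 0.85 (SE 0.219) in the immunocompetent line and 0.59 (SE 0.274) in the athymic line. The libraries with the highest *Vim* at each age were libraries 4, 19 and 24, which were also the highest in the 134 genes that varied together. At p21, the 3 libraries with the highest sums (4, 6 and 3) had the most *Vim* in the same order, whereas library 5, next by sum (924 CPM), had the least. Whether these genes play a part in the *Vim* level was not tested.

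Without libraries 4, 19 and 24, *Vim* ranged from 146 to 234 CPM at p21 (n = 5) and from 254 to 334 CPM at p60 (n = 4), and the ages no longer overlapped. The libraries left out had the highest *Vim* at each age. The lack of overlap and the narrower ranges therefore follow from leaving them out, which also bears on the SE. The log2 fold change was then 0.61 (SE 0.131) over all retinas, 0.53 (SE 0.128) in the immunocompetent line and 0.69 (SE 0.188) in the athymic line. The value of the immunocompetent line was thus lower and that of the athymic line higher than with all libraries, and libraries 6 and 3, with 3993 and 2053 CPM on the 134 genes, were still among those kept. In the immunocompetent line, leaving out library 19 alone lowered it from 0.85 to 0.53, and in the athymic line it was 0.34 without library 5, 0.36 without library 24 and 0.91 without library 4.

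*Nes*, the progenitor filament gene, was scarce at both ages, at 29 to 69 counts per p21 library and 36 to 78 per p60 library. The immunocompetent p21 retinas had 2.54 (library 1), 2.78 (library 2) and 3.02 CPM (library 3), and the athymic p21 retinas had 2.17 (library 5), 4.07 (library 4) and 4.41 CPM (library 6). The immunocompetent p60 retinas had 5.15 (library 19), 3.49 (library 20) and 2.24 CPM (library 21), and the athymic p60 retinas had 2.90 (library 22), 3.04 (library 23) and 2.84 CPM (library 24). The ages overlapped in both lines, and 1 of 6 p60 libraries lay above the highest p21 library. The 95% Clopper-Pearson interval of the count was 19.4 to 41.6 in library 5 and 61.7 to 97.3 in library 19, which covers counting error only, since the reads carried no molecular identifiers.

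Mean *Nes* levels were 2.78 ± 0.243 CPM at p21 and 3.63 ± 1.46 CPM at p60 in the immunocompetent line, and 3.55 ± 1.21 CPM at p21 and 2.92 ± 0.105 CPM at p60 in the athymic line (SD, n = 3 each). The log2 fold change was 0.05 (SE 0.23) over all 12 retinas, 0.38 (SE 0.308) in the immunocompetent line and -0.29 (SE 0.277) in the athymic line. The values of the lines had opposite signs, and each was only slightly larger than its SE. The value over all retinas changed sign to -0.05 (SE 0.236) without libraries 4, 19 and 24, and the immunocompetent value was 0.04 (SE 0.294) without library 19 and 0.63 without library 21. The athymic value was -0.10 without library 6, -0.54 without library 5, -0.60 (SE 0.354) without libraries 4, 5 and 22 and -0.18 (SE 0.360) without libraries 4, 19 and 24.

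**Figure D1:**
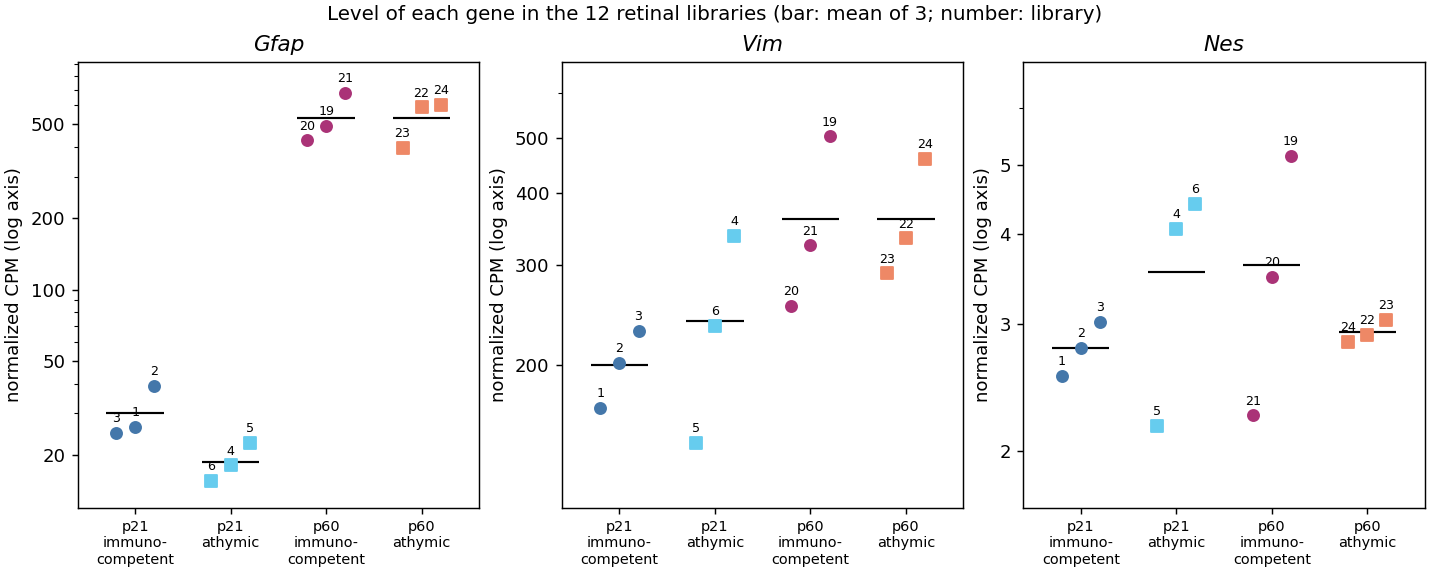
Normalized CPM (log axis) of *Gfap*, *Vim* and *Nes* in each library, by age and line, with the library number beside each point and a bar at the mean of 3. The p60 points of *Gfap* lie at 396 to 678 CPM against 15.6 to 39.2 at p21, whereas the ages overlap for *Vim* (146 to 338 and 254 to 504) and *Nes* (2.17 to 4.41 and 2.24 to 5.15).

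Over all 12 retinas, 31.7% of 16069 genes were called higher at p60 (edgeR's quasi-likelihood test, adjusted p under 0.05). The share was 25.6% in the immunocompetent line and 25.3% in the athymic line. As the 3 genes were chosen with this contrast known, these shares are given as background alone. Over all genes, the median log2 fold change was 0.015 with TMM scaling and 0.204 with scaling to total counts alone, under which that of *Gfap* was 4.66, that of *Vim* 0.91 and that of *Nes* 0.23. In whole retina, more cells of a type, more RNA per cell and a larger share left by the loss of other cells cannot be told apart.

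**Figure D2:**
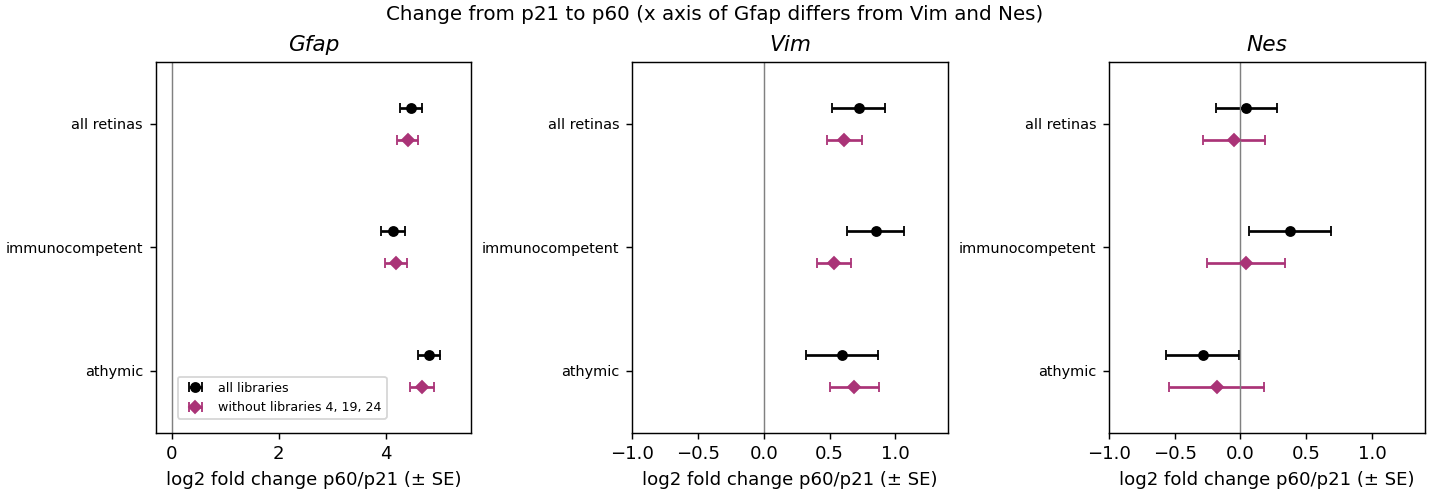
Log2 fold change from p21 to p60 (point, with SE as bar) of the 3 genes over all retinas and in each line, with all libraries (black circles) and without libraries 4, 19 and 24 (purple diamonds). *Gfap* lies between 4.14 and 4.82 in both lines, *Vim* between 0.53 and 0.85, and *Nes* spans 0. The horizontal scale of *Gfap* is wider than that of the others.

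The order of the genes was compared per kilobase of exonic length, since the annotated lengths differ. At p21, *Vim* had 118 ± 36.2, *Gfap* 6.66 ± 2.26 and *Nes* 0.520 ± 0.146 CPM per kilobase (SD, n = 6). At p60, *Vim* had 194 ± 53.3, *Gfap* 145 ± 30.0 and *Nes* 0.538 ± 0.164 CPM per kilobase. At p21 the 3 genes did not overlap in any library, whereas at p60 *Gfap* (108 to 185) overlapped *Vim* (137 to 271) and both lay far above *Nes* (0.368 to 0.846). Among the genes with counts in a library, *Gfap* stood between percentile 44.2 and 60.5 by level per kilobase at p21 and between 97.2 and 98.7 at p60. *Vim* stood between 95.1 and 98.3 at p21 and between 97.9 and 99.3 at p60, and *Nes* between 16.0 and 24.3 at either age.

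The balance of the 2 abundant filament genes therefore differed between the retinas of the 2 ages. The ratio of *Gfap* to *Vim* per kilobase was 0.0789 (library 1), 0.0986 (library 2), 0.0549 (library 3), 0.0272 (library 4), 0.0780 (library 5) and 0.0337 (library 6) at p21. At p60 it was 0.494 (library 19), 0.853 (library 20), 1.06 (library 21), 0.895 (library 22), 0.694 (library 23) and 0.663 (library 24). *Gfap* exceeded *Vim* per kilobase in 1 of 6 retinas at p60 and in 0 of 6 at p21. Without division by length, *Gfap* had more CPM than *Vim* in 5 of 6 retinas at p60. The lowest ratios at each age were those of libraries 4 and 19, the libraries with the most *Vim*. The ratio did not differ detectably between the lines at p21 (0.0775 against 0.0463 in the athymic line, two-sided exact permutation test, p = 0.2) or at p60 (0.803 against 0.751, exact p = 1), where 3 libraries against 3 cannot give a p below 0.1.

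*Gfap* and *Vim* differed more between retinas of the same age and line than most genes of similar mean level over the 12 libraries. The SD of log2 CPM within age and line was 0.328 for *Gfap*, 0.443 for *Vim* and 0.399 for *Nes*, against a median of 0.141 over all genes tested. Among the genes closest in that mean level, *Gfap* stood at percentile 99.2 of this SD, *Vim* at 99.9 and *Nes* at 78.7. For *Gfap* the mean falls between its p21 and p60 levels, so these genes need not be near its level at either age. The coefficient of variation within a group was 18.7% to 26.4% for *Gfap* and 15.3% to 40.0% for *Vim*, where the counts alone would give 1.07% to 6.13% and 1.3% to 1.92%. For *Nes* it was 3.58% to 40.2% against 13.3% to 16.3% from counting.

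Relations between the 3 genes were computed over the retinas of each age. At p21, Pearson's r of *Vim* and *Nes* was 0.857 (exact permutation p = 0.0292, adjusted p = 0.175, n = 6). Spearman's rho was 0.943 (exact permutation p = 0.0167, adjusted p = 0.1). Neither passed the adjustment, which is over 6 relations. Without libraries 4 and 5, the farthest from the median of *Vim*, r was 0.771. At p60, r of *Vim* and *Nes* was 0.417 (rho = 0.0286, exact p = 0.435 and 1, adjusted p = 0.435 and 1, n = 6) and became -0.767 without libraries 19 and 24, so it rested on them.

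The relations of *Gfap* with the other genes differed in sign. Its r with *Vim* was -0.413 at p21 (rho = -0.543, exact p = 0.414 and 0.297) and 0.384 at p60 (rho = 0.429, exact p = 0.429 and 0.419). With *Nes*, r was -0.636 at p21 (rho = -0.60, exact p = 0.175 and 0.242) and -0.525 at p60 (rho = -0.771, exact p = 0.286 and 0.103). None of these 4 passed the adjustment (adjusted p = 0.435 for each r, and 0.308 to 0.503 for rho). Without the 2 libraries farthest from the median of *Gfap*, r with *Vim* was -0.707 at p21 and 0.496 at p60, and r with *Nes* was -0.682 and -0.561. The libraries with the lowest *Gfap* at p21, 6 and 4, were the 2 with the highest sums of the 134 genes, and both are athymic. At p60 the libraries with the highest sums, 19 and 24, had 491 and 602 CPM of *Gfap*, within the 396 to 678 CPM of all p60 libraries.

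**Figure D3:**
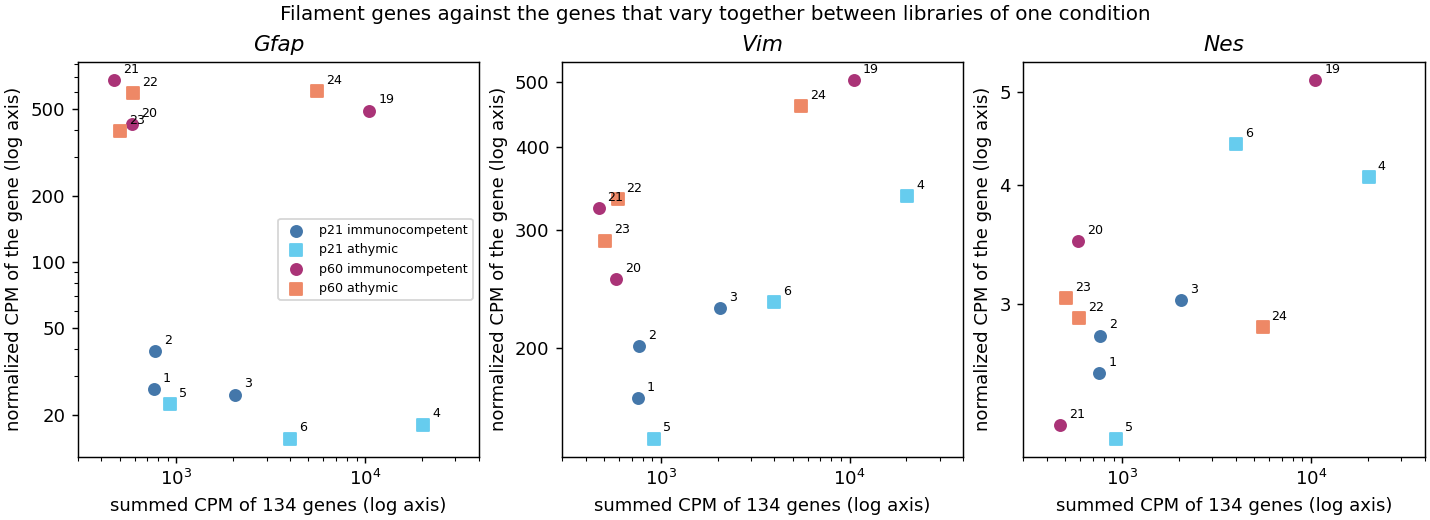
Normalized CPM of each filament gene (log axis) against the summed CPM of the 134 genes that varied together between libraries of one condition (log axis), with 1 point per library. For *Vim*, library 4 at p21 (20261 and 338 CPM) and libraries 19 and 24 at p60 (10522 and 504, 5545 and 460.2) are highest on both axes within their age, whereas *Gfap* separates the ages at every value of the sum.

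The effect of the immunodeficient line was examined at each age and over both. At p21, the 3 athymic retinas had less *Gfap* than each of the 3 immunocompetent retinas (15.6 to 22.5 against 24.8 to 39.2 CPM), with a log2 difference of -0.68 (SE 0.188). This did not pass the adjustment over all genes (edgeR, unadjusted p = 0.00477, adjusted p = 0.271), in a comparison with 0% of 15225 genes called and 1936 at an unadjusted p under 0.05. The two-sided exact permutation test gave p = 0.1, the smallest it allows for 3 against 3. The call depended on the method, as DESeq2 gave an adjusted p of 0.0249 with 140 genes called, and edgeR without a filter on low counts gave 0.0270 with 282 genes called. Without library 6, every p21 library left had Y counts at the level of those labelled male. The *Gfap* difference was then -0.56 (SE 0.208, edgeR, adjusted p = 0.480). The difference was -0.44 without library 2, the highest of the immunocompetent retinas, and -0.94 (SE 0.261, adjusted p = 0.316) without libraries 4, 5 and 22, where library 6 alone stood for the athymic line and was assumed to vary like the others. It was -1.06 (adjusted p = 2.41e-07) where library 3 was left out as well, so that this call rested on libraries 1 and 2 against library 6.

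At p60 the lines differed in *Gfap* by far less than the error of the difference. The log2 difference was -0.01 (SE 0.199, adjusted p = 0.997), where 0.0193% of 15557 genes were called. Over both ages it was -0.32 (SE 0.177, adjusted p = 0.509), where 0% of 16069 genes were called by edgeR, 1904 had an unadjusted p under 0.05 and DESeq2 called 261. Without library 2 it was -0.18 (SE 0.150). The change of *Gfap* from p21 to p60 was larger in the athymic line by 0.68 on the log2 scale (SE 0.309), which did not pass the adjustment (unadjusted p = 0.0465, adjusted p = 0.528). In this test of the interaction, 0.00622% of 16069 genes were called, and for *Gfap* the value stayed above 0 when any 1 of the 12 libraries was omitted (0.42 without library 2 to 0.89 without library 21). Without libraries 4, 19 and 24 it was 0.51 (SE 0.365, adjusted p = 0.693).

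The lines did not differ detectably in *Vim* or *Nes*. For *Vim*, the log2 difference of athymic from immunocompetent retinas was 0.27 (SE 0.243, adjusted p = 0.675) at p21 and less than 0.01 in size (SE 0.26, adjusted p = 0.999) at p60. Leaving out library 4 turned the p21 difference to -0.06 (SE 0.185), and leaving out library 5 raised it to 0.53 (SE 0.160). The p21 difference was 0.24 (SE 0.152, adjusted p = 0.576) without libraries 4, 5 and 22, and 0.35 (adjusted p = 0.00573) where library 3 was left out as well, again with library 6 alone for the athymic line. The p60 difference of *Vim* was 0.33 (SE 0.188, adjusted p = 0.559) without library 19, -0.20 without library 20 and -0.22 without library 24.

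For *Nes*, the log2 difference between the lines was 0.36 (SE 0.291, adjusted p = 0.629) at p21 and -0.31 (SE 0.301, adjusted p = 0.822) at p60. The p21 value was 0.18 without library 6, 0.62 without library 5 and 0.67 (SE 0.332, adjusted p = 0.484) without libraries 4, 5 and 22. The p60 value was 0.04 (SE 0.264) without library 19 and -0.57 (SE 0.243) without library 21. The change between the ages differed between the lines by -0.66 for *Nes* (SE 0.434, adjusted p = 0.674) and by -0.26 for *Vim* (SE 0.405, adjusted p = 0.891). Without library 19 these values were -0.33 and 0.06, and without libraries 4, 19 and 24 they were -0.20 (SE 0.476) and 0.18 (SE 0.259). The *Vim* value was 0.04 without library 4 and -0.51 without library 5. Over both ages, the difference between the lines was 0.02 for *Nes* (SE 0.23, adjusted p = 0.988) and 0.13 for *Vim* (SE 0.201, adjusted p = 0.864), and each took either sign when 1 library was left out. The exact permutation test gave p between 0.4 and 0.9 for the 4 comparisons of *Vim* and *Nes* at a single age (n = 3 against 3).

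**Figure D4:**
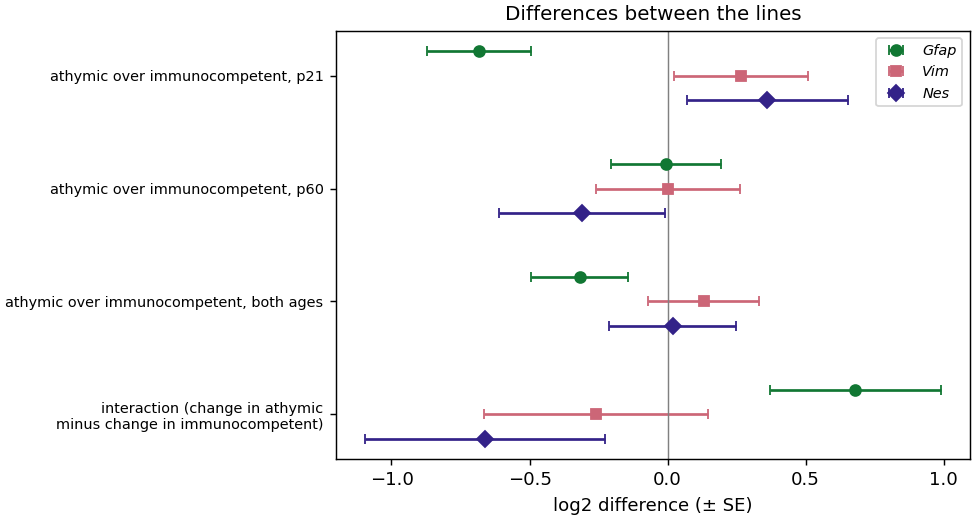
Log2 difference between athymic and immunocompetent retinas at p21, at p60 and over both ages, and the interaction of age and line, with SE as bar, for *Gfap* (green circles), *Vim* (pink squares) and *Nes* (blue diamonds). The *Gfap* points at p21 (-0.68) and for the interaction (0.68) are more than 2 SE from 0, and neither passed the adjustment over all genes.

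The genes most like each filament gene were sought among 13546 other genes whose log2 CPM averaged 1 or more, by Pearson's r of log2 CPM over the 12 libraries. These correlations are descriptions, and for *Gfap* they include the rise between the ages by which it was chosen. ENSRNOG00000017420, on chromosome 2 from 124134307 to 124149636, was most like *Gfap* (r = 0.995), with 6.58 to 8.95 CPM at p21 and 19.9 to 27.1 CPM at p60, and 1586 genes had an r of at least 0.9. After the mean of each age and line was subtracted, its r with *Gfap* was 0.779. ENSRNOG00000024703, on chromosome 15 from 44453308 to 44627765, was most like *Nes* (r = 0.8999), with 14.3 to 22.3 CPM at p21 and 11.8 to 24.5 CPM at p60, and an r of 0.938 after that subtraction. For *Vim*, 89 genes reached an r of 0.9, and the gene most like it had an r of 0.964, or 0.978 after the subtraction. The files do not pair these identifiers with names.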

How the data were processed

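Poly(A) RNA of whole retinas was sequenced as paired-end reads. The authors checked read quality with FastQC, mapped the reads with STAR (2.5.2b in the processing notes) and deposited raw counts per Ensembl gene from featureCounts (Subread 1.5.2 in the processing notes), 1 file for each library. The strand setting and the treatment of reads with several positions are not given in the sources used here.

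From the deposited counts, genes were filtered with filterByExpr (minimum count 10, minimum total 15), scaled with TMM factors and tested with edgeR 4.0.16 (quasi-likelihood, R 4.3.3) with Benjamini-Hochberg adjustment at 0.05 over all genes tested. The ages over 12 libraries had line as a covariate, and the lines over both ages had age. The SE is the fold change (log2) divided by the root of F, and log2 CPM had a prior count of 2. The fits were also run on simulated data, whose outcome is not given here and on which no statement rests. DESeq2 1.42.0, RLE factors, total counts alone, other filters, a model of all 4 groups and fits without libraries were the alternatives. Single values were compared by exact permutation.

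The members, lists and tests were chosen with earlier results of these data known. The rule for naming genes took the 3 members and, as no identifier matched a symbol, the gene most like *Gfap* and the gene most like *Nes*. The gene lists written for cell types and pathways were not analysed here for the same reason. The 134 genes that vary together were defined after the data were seen. Libraries are separate in the labels, and p-values measure the spread between these samples, which may be technical. Promoters are from RefSeq (GRCr8), where 3 of 3 members matched by symbol, and no coordinates were converted. Plots were drawn with matplotlib 3.10.9.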

Additional observations from a re-analysis of the deposited data

Results flagged for a closer look

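Dixon's ratio was computed for 16 sets of 6 libraries of the same age, and in 2 of them a library stood far from the rest. The usual rate by chance, about 1 in 20 sets, does not apply to these 2 measures. Counts on the Y chromosome follow sex, and the 134 genes were picked from these libraries because they varied between them. At p21, library 6 had 8.79 CPM on the Y chromosome, where the other 5 libraries had 229.2 to 328. At p21, library 4 had 20261 CPM on the 134 genes that varied together, where the other 5 had 757 to 3993. Levels of *Gfap*, *Vim* and *Nes* and the ratio of *Gfap* to *Vim* held no such library at either age, and library 4 was the highest of the p21 libraries in *Vim* (338 against 146 to 234 CPM).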

How the results depend on the processing

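No paired analysis was possible because the groups share no replicate number. The changes of *Gfap*, *Vim* and *Nes* between the ages moved by less than 1 SD within age and line in 81 of 81 values under another setting and in 72 of 72 values without 1 library. Over the latter they ranged from 3.93 to 4.98 for *Gfap*, from 0.34 to 1.05 for *Vim* and from -0.54 to 0.63 for *Nes*. A limit of 1 SD is lenient, since leaving out 1 of 3 libraries moves a group mean by only part of that library's deviation. It therefore says little about stability. *Vim* in the athymic line went from 0.59 to 0.34 without library 5 and still lay within it. In the immunocompetent line, the setting without libraries 4, 5 and 22 was the main fit itself, as those libraries are athymic. The ratio of *Gfap* to *Vim* went from 0.0619 to 0.122 at p21 and from 0.777 to 1.53 at p60 without division by length, which follows from the lengths. The correlation of *Vim* and *Nes* at p60 turned to -0.767 without libraries 19 and 24.

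For the lines, the p21 difference passed the threshold for *Gfap* without a filter (-0.68), with DESeq2 (-0.68) and without libraries 3, 4, 5 and 22 (-1.06), and for *Vim* in the last (0.35). None of the values that changed sign passed the threshold. Without libraries 4, 19 and 24, *Vim* was 0.18 for the interaction and -0.059 at p21, and *Nes* was 0.051 at p60. At p60, *Vim* was -9.0e-05 with RLE factors, -0.0072 without a filter and -1.3e-04 with DESeq2. Without 1 library, *Vim* ranged from -0.51 to 0.060 (interaction), -0.023 to 0.29 (both ages), -0.059 to 0.53 (p21) and -0.22 to 0.33 (p60). *Nes* ranged from -0.92 to -0.33 (interaction), -0.10 to 0.21 (both ages), 0.18 to 0.62 (p21) and -0.57 to 0.036 (p60), and *Gfap* from 0.42 to 0.89 (interaction), -0.43 to -0.18 (both ages), -0.83 to -0.44 (p21) and -0.14 to 0.19 (p60).

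Counts of genes called in the line comparisons were unstable, and the cause was not tested. For the interaction (1 gene), the count was 115 without a filter, 0 with at least 10 counts in every library, 146 with DESeq2, 0 without libraries 3, 4, 5 and 22, 3 without libraries 4, 19 and 24, and 1 to 138 without 1 library. For both ages (0 genes), it was 16 without a filter, 261 with DESeq2, 2 in the model of 4 groups, 63 without libraries 3, 4, 5 and 22, 1 without libraries 4, 19 and 24, and 0 to 74 without 1 library. At p21 (0 genes), it was 282 without a filter, 140 with DESeq2, 1257 without libraries 3, 4, 5 and 22, and 0 to 85 without 1 library. At p60 (3 genes), it was 11 without a filter, 106 with DESeq2, 26 without libraries 3, 4, 5 and 22, 179 without libraries 4, 19 and 24, and 0 to 61 without 1 library. Between the ages of the athymic line (7740 genes), it was 3342 without libraries 3, 4, 5 and 22, where 1 library was left at p21. Without libraries 4, 5 and 22 alone, a setting chosen after seeing the data, the counts were 2 (interaction), 20 (both ages), 19 (p21), 26 (p60) and 3342 (ages, athymic line), and no member passed the threshold between the lines. *Nes* had the fewest counts of the 3 genes, at 29 to 78 per library.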
